A study of Arabidopsis thaliana with 6 samples.

Results

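The genes described here encode 4 enzymes or enzyme subunits of branched-chain amino acid synthesis in Arabidopsis thaliana: AT2G31810, a regulatory subunit of acetolactate synthase, AT3G58610, ketol-acid reductoisomerase, AT3G23940, dihydroxyacid dehydratase, and ATBCAT-5 (locus AT5G65780), a branched-chain aminotransferase. They were chosen by name, with earlier results of these data known. Taken were the probe sets that the annotation of the ATH1 array assigns to exactly 1 of these genes. Each gene had 1 such probe set, so that they make up 4 of the 22746 probe sets measured, and 4 of the 13286 genes that could be tied to a probe set. The arrays carried total RNA of 8-day-old Columbia-0 plants in 2 groups of 3 biological replicates, the lib mutant and its wild type. Both groups grew without any treatment on vertical agar plates of half-strength MS medium with 1% sucrose, in days of 16 h light and 8 h dark. The labels do not name the gene altered in lib or the number of lines behind it, and the title of the series speaks of a partial deficiency of isoleucine. The sample labels give whole seedlings as the tissue, while the design text gives roots.

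Valine, leucine and isoleucine are made in the plastid by a shared set of enzymes. Acetolactate synthase joins pyruvate to a second pyruvate for valine and leucine, or to oxobutanoate for isoleucine. Its catalytic subunit does the chemistry, and its regulatory subunit makes the enzyme sensitive to feedback inhibition by the end products. Ketol-acid reductoisomerase and dihydroxyacid dehydratase then act in turn on the intermediates of both branches, and a branched-chain aminotransferase adds the amino group. The same family of aminotransferases also works in the breakdown of these amino acids and in the chain elongation of methionine for glucosinolates. Threonine deaminase, the product of OMR1, supplies oxobutanoate to the isoleucine branch. No probe set is assigned to OMR1 alone, and it was not analysed here.

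The values are MAS5 signals, which summarise the probes of a probe set on each array, deposited on a log2 scale. The median log2 signal of the arrays lay between 7.40 and 7.52, and the mean of each of the 4 genes lay above the middle of that distribution. Over all probe sets, 20.7% changed between lib and wild type at a Benjamini-Hochberg adjusted p under 0.05 by limma: 10.4% were higher and 10.3% lower in lib. Of the 4 shoot markers examined, LHCB4.1 and RCA fell in lib, PRK and SBPASE did not pass, and their summed signal was 1092 to 1492 on the lib arrays and 1658 to 2636 on the wild type arrays. Of the 3 root markers, PYK10 fell, and EXPA7 (log2 fold change 0.20) and EXPA18 (-0.004) did not pass. The summed signal of the 3 was 13542 to 15628 on the lib arrays and 17811 to 21898 on the wild type arrays. Most of that sum was PYK10 alone, at 11847 to 14024.5 in lib and 16373 to 20685 in wild type. None of these 7 markers was at 0 on any array. On the wild type arrays LHCB4.1 ran from 1054 to 1718, RCA from 498 to 772, PRK from 48 to 80 and SBPASE from 32 to 66. The wild type mean log2 signals of PRK and SBPASE, 6.03 and 5.51, lay below the median of every array. EXPA7 ran from 431 to 713 and EXPA18 from 782 to 1189 on the same arrays. Which of the 2 named tissues these levels belong to was not tested. The part of the markers in the results below was not tested either. With RNA of many cell types pooled, fewer cells of a type and less RNA per cell cannot be told apart.

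AT2G31810, a regulatory subunit at the entry of the pathway, was the member that changed. Its signal was 1794, 1662 and 2019 on the lib arrays, against 3374, 4490 and 3303 on the wild type arrays. Every lib array lay below every wild type array, and wild type replicate 2 was the highest of all 6. The mean log2 signal was 10.83 ± 0.14 in lib and 11.85 ± 0.25 in wild type (SD, n = 3 each). The transcript fell by 1.02 on the log2 scale in lib (SE 0.13, limma adjusted p = 0.00114), which is 0.494 times the wild type level with a 95% interval of 0.400 to 0.609. By adjusted p, 624 of the 22746 probe sets ranked ahead of it, and 552 of the probe sets that fell had a fall at least as large, itself included. A fall of at least 2-fold that passed the test was met by 2.50% of all probe sets. The interval of AT2G31810 spans a 2-fold fall, and the fitted fall was less than 2-fold without wild type replicate 2, at a log2 change of -0.88, and without lib replicate 2, at -0.95.

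AT3G58610, the ketol-acid reductoisomerase, had signals of 6575, 6402 and 7792 on the lib arrays, against 6086, 5804 and 6205 on the wild type arrays. The lib arrays were all above the wild type arrays, but the gap between the nearest of them was narrow, and lib replicate 3 stood above the other two. The mean log2 signal was 12.75 ± 0.15 in lib and 12.56 ± 0.05 in wild type (SD, n = 3 each). The log2 fold change of 0.19 (SE 0.11) did not pass by limma (adjusted p = 0.253). Its 95% interval reached from a level 0.966 times that of wild type to one 1.36 times as high. Without lib replicate 3 the log2 fold change was 0.11.

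AT3G23940, the dihydroxyacid dehydratase, which acts on the product of the reductoisomerase, had signals of 1153, 1071 and 1229 on the lib arrays. On the wild type arrays the signals of AT3G23940 were 862, 911 and 1044. Here too the groups did not overlap, with wild type replicate 3 close below lib replicate 2. The mean log2 signal was 10.17 ± 0.10 in lib and 9.87 ± 0.14 in wild type (SD, n = 3 each), a log2 fold change of 0.30 (SE 0.10). This did not pass over all probe sets (limma adjusted p = 0.0768), and the 95% interval of the fold was 1.04 to 1.45. The call depended on the processing, since the gene passed as higher in lib with array weights (log2 fold change 0.30, limma adjusted p = 0.0383) and without wild type replicate 3 (0.38, limma adjusted p = 0.0410).

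ATBCAT-5, the aminotransferase at the last step, had signals of 1151, 1212 and 1101 on the lib arrays, against 992, 1024 and 1039 on the wild type arrays. All lib arrays were above all wild type arrays, and this gene had the smallest residual SD of the 4, at 0.055 on the log2 scale, against 0.201 for AT2G31810. The mean log2 signal was 10.17 ± 0.07 in lib and 9.99 ± 0.03 in wild type (SD, n = 3 each). The log2 fold change of 0.18 (SE 0.09) did not pass by limma (adjusted p = 0.177), and the 95% interval of the fold was 0.992 to 1.29. In the TAIR10.1 gene table the span of ATBCAT-5 overlaps that of LINC4, a gene for a nuclear lamina protein, and which of the transcripts the probes match was not examined here.

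**Figure D1:**
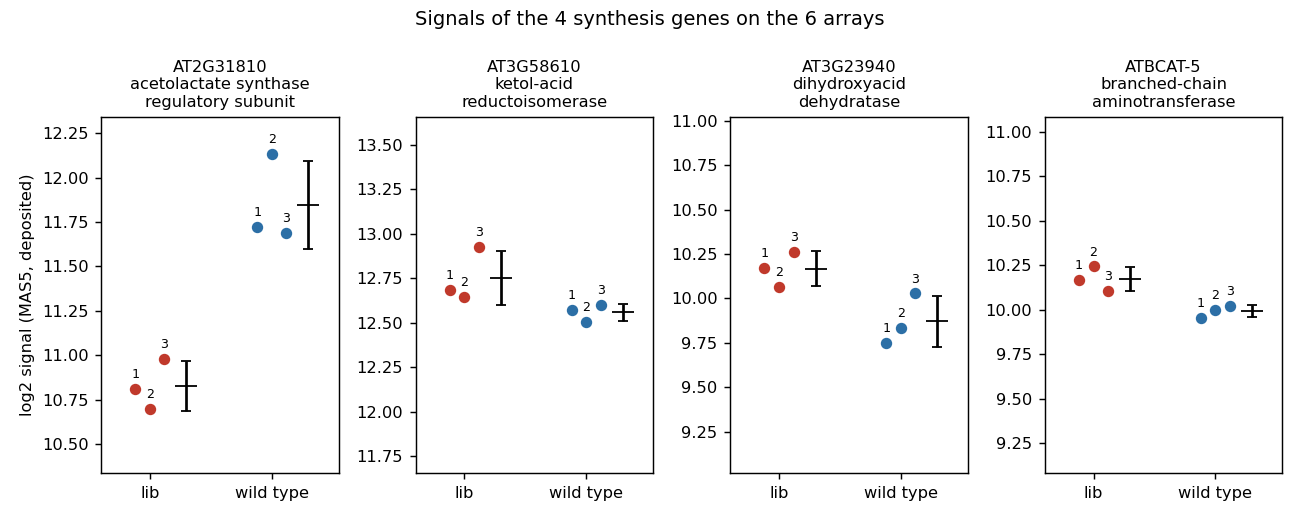
Deposited log2 signals (vertical axis, the same span of 2 log2 units in each panel) of the 4 genes on the 3 lib arrays (red) and the 3 wild type arrays (blue), numbered by replicate, with the mean ± SD of each group in black. AT2G31810 is lower on all lib arrays, with means of 10.83 in lib and 11.85 in wild type, and the other members are slightly higher on all lib arrays.

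Across the members, 1 of 4 fell, 0 rose and 3 did not pass the test, where 20.7% of all probe sets changed. The arrays of lib and wild type did not overlap for any of the 4 genes, and for 38.1% of all probe sets. In 3 of the 4 genes the lib arrays were the higher ones, as they were for 18.0% of all probe sets, and in AT2G31810 the lower ones, as for 20.2%. The median log2 fold change was 0.19 over the members and -0.04 over all probe sets. A difference of the size seen in ATBCAT-5 or larger, in either direction, was met by 73.4% of all probe sets, one of the size of AT3G58610 by 71.4%, and one of the size of AT3G23940 by 58.5%. For AT2G31810 that share was 13.7%.

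Whether the members changed unequally was examined with the log2 ratio of each pair of genes within each array. The ratio of AT2G31810 to AT3G58610 was -1.92 ± 0.04 in lib and -0.71 ± 0.30 in wild type (SD, n = 3 each), a difference of -1.21. Against AT3G23940 the difference in the ratio of AT2G31810 was -1.31, and against ATBCAT-5 it was -1.20. In each of these 3 ratios the lib arrays lay below all wild type arrays. The exact permutation p was 0.1 (two-sided), the smallest that 3 arrays against 3 can give, and 0.2 after adjustment over the 6 pairs. That separation was fixed by the single signals, since AT2G31810 was lower and the other members higher on every lib array. The 3 ratios also share AT2G31810, so these p-values are no further support for an unequal change. The ratio of AT2G31810 to AT3G23940 ran from 0.63 to 0.72 on the lib arrays and from 1.66 to 2.30 on the wild type arrays.

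The ratios among the other members overlapped between the groups. The ratio of AT3G58610 to AT3G23940 differed by -0.10 between lib and wild type (exact permutation p = 0.4, 0.6 adjusted over the 6 pairs). The ratio of AT3G58610 to ATBCAT-5 differed by 0.01 (exact permutation p = 0.9, 0.9 adjusted) and changed sign with the processing. The ratio of AT3G23940 to ATBCAT-5 differed by 0.12 (exact permutation p = 0.5, 0.6 adjusted). With so few arrays these values do not show that these genes moved alike.

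**Figure D2:**
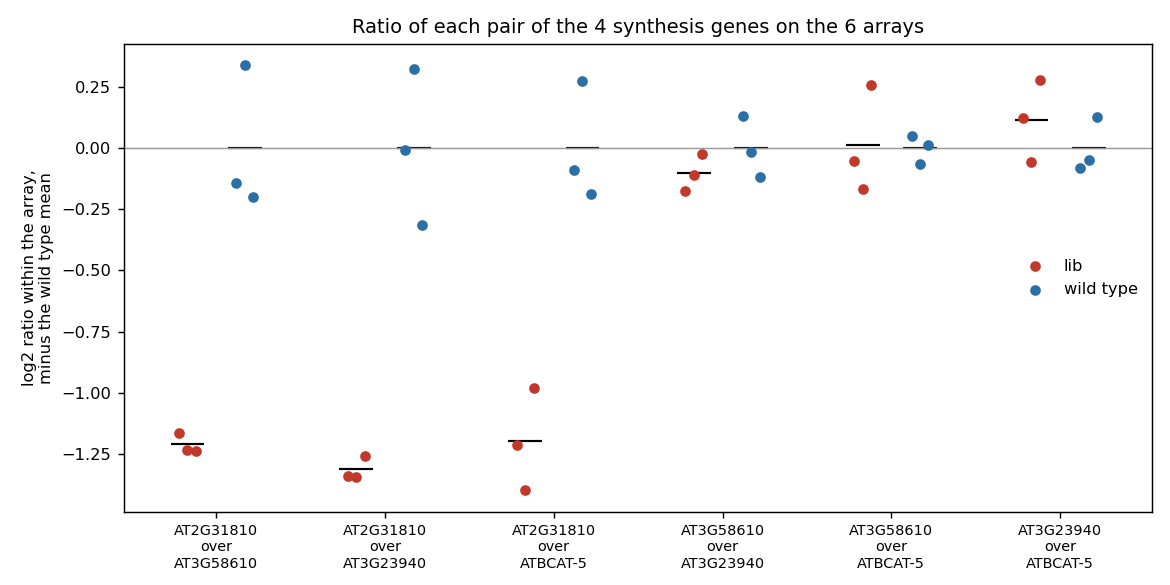
Log2 ratio of each pair of the 4 genes within an array, minus the mean of that ratio in wild type (vertical axis), for the lib arrays (red) and the wild type arrays (blue), with group means as black lines. The 3 ratios with AT2G31810 on top are lower on every lib array, by -1.20 to -1.31 on average, and the 3 ratios among the other genes overlap.

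For AT2G31810, the authors' deposited table has a ratio of lib to wild type of 0.490 and a p of 0.00713. AT3G23940 (ratio 1.23, p = 0.0481) and ATBCAT-5 (ratio 1.13, p = 0.0289) also lie under 0.05 in the authors' deposited table, and AT3G58610 does not (ratio 1.15, p = 0.151). These p-values in the authors' deposited table are unadjusted, and 23.7% of all probe sets lie under 0.05 there. After Benjamini-Hochberg adjustment of the authors' deposited table, AT2G31810 has an adjusted p of 0.0997, and the other members lie between 0.166 and 0.367. So the fall of AT2G31810 meets the 2-fold criterion of the design text in both analyses, but passes a corrected p under 0.05 by limma and not with the p-values of the authors' deposited table.

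Of 12 genes listed for branched-chain amino acid synthesis, 5 had a probe set of their own: the 4 genes above and AT1G50110, a further branched-chain aminotransferase. AT1G50110 had signals of 476, 374 and 492 on the lib arrays, against 259, 196 and 263 on the wild type arrays. The groups did not overlap, and the gene rose by 0.90 on the log2 scale (SE 0.16, limma adjusted p = 0.00489), or 1.87-fold with a 95% interval of 1.45 to 2.41. It passed the test under each of the 13 alternatives tried for it, with limma adjusted p-values of 0.00129 to 0.0421. Thus both aminotransferases of the list that were measured had higher signals on every lib array, as did 18.0% of all probe sets. AT1G50110 passed the test while ATBCAT-5 did not. The other aminotransferases of the list have no probe set of their own here. The list as a whole had 1 gene that rose, 1 that fell and 3 that did not pass, where 20.7% of all probe sets changed. Its median log2 fold change was 0.19. The catalytic subunit of acetolactate synthase and its other listed regulatory subunit have no probe set of their own here and were not analysed. The same holds for the 7 genes listed for the leucine branch, from isopropylmalate synthase onwards.

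In the pathways that share substrates with these enzymes, some genes differed more than any of the 4 members and others less. BCAT4, the aminotransferase of methionine chain elongation, was the only one of the 5 genes listed there with a probe set of its own. Its signals were 4309 to 4515 on the lib arrays and 406 to 1001 on the wild type arrays (log2 fold change 2.86, SE 0.26, limma adjusted p = 0.000247). MGL, methionine gamma-lyase, whose product oxobutanoate can enter isoleucine synthesis at acetolactate synthase, had signals of 1128 to 1417 on the lib arrays and 3159 to 4249 on the wild type arrays. It fell by 1.60 (SE 0.13, limma adjusted p = 0.000162). The other measured genes of that list, AT1G14810 (aspartate semialdehyde dehydrogenase, at 0.17) and AT1G72810 (threonine synthase, at 0.03), did not pass. Of 19 genes listed for breakdown, 12 had a probe set of their own. Against 10.3% falls and 10.4% rises over all probe sets, 6 of these 12 fell, 1 rose and 5 did not pass. The median log2 fold change of the 12 was -0.28. Those that did not pass were AT5G09300 (0.46), AT4G16800 (0.25), ETFBETA (0.19), ETFALPHA (0.17) and D2HGDH (-0.16). The gene that rose, AT4G31810, an enoyl-CoA hydratase family member, stood at 0.49 (SE 0.12, limma adjusted p = 0.0233), and it did not pass in 6 of the 13 alternatives (limma adjusted p of 0.0126 to 0.0941 over all of them). The falls were those of MCCA and MCCB, the subunits of methylcrotonyl-CoA carboxylase, IVD, ETFQO, ALDH6B2 and AT2G26800. ALDH6B2 (log2 fold change -0.40, limma adjusted p = 0.0178) did not pass in 4 of the 13 alternatives, and AT2G26800, a hydroxymethylglutaryl-CoA lyase (-0.39, limma adjusted p = 0.0393), did not pass in 8. The breakdown genes had 4 calls, all falls, without the intensity trend, with the replicate block and without wild type replicate 1.

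**Figure D3:**
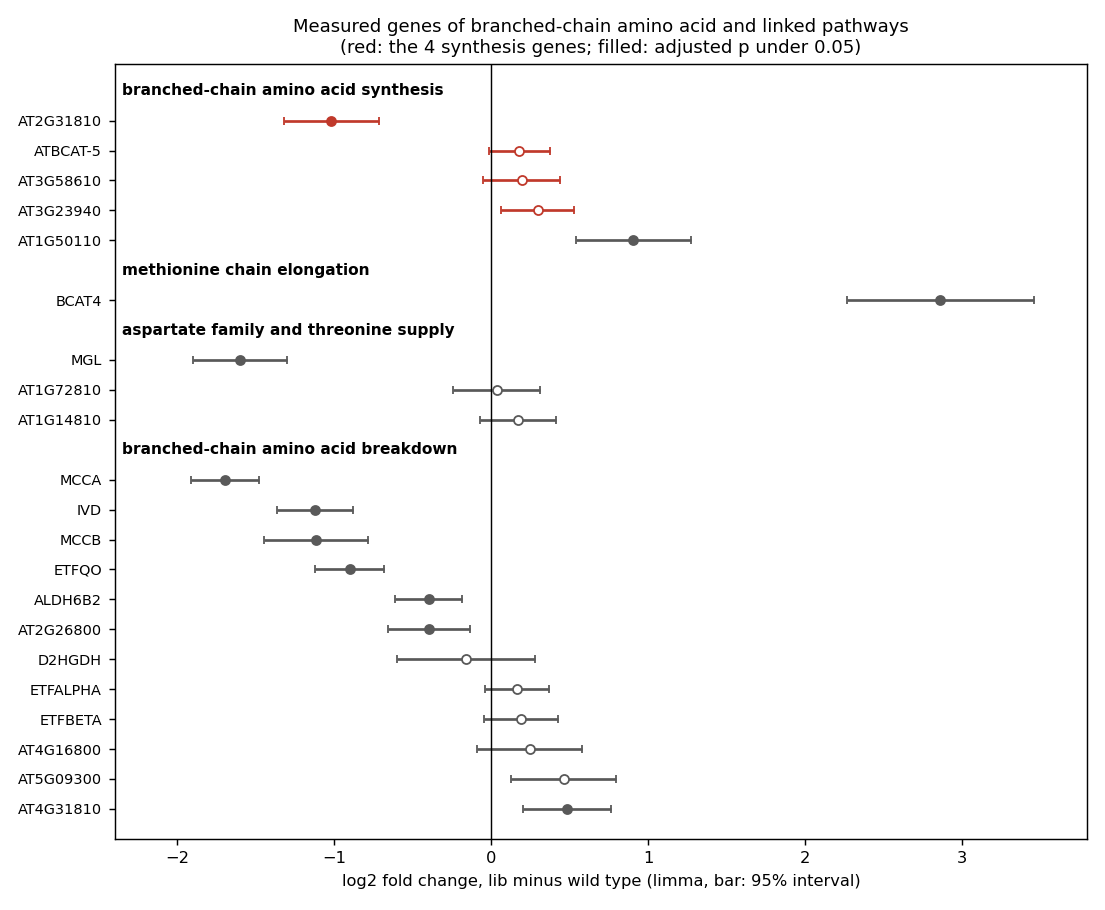
Log2 fold change of lib against wild type (horizontal axis, with 95% intervals from limma) for all measured genes of the 4 pathway lists, with the 4 synthesis genes in red and filled symbols for a limma adjusted p under 0.05. AT2G31810 stands at -1.02 and the other members at 0.18 to 0.30, between the rise of BCAT4 at 2.86 and the fall of MCCA, a subunit of methylcrotonyl-CoA carboxylase, at -1.70.

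The chromosome neighbours of the members were described as well, taking the nearest 2 protein-coding genes on each side in the TAIR10.1 gene order. Of 16 such genes, 9 had a probe set of their own, and 1 rose, 2 fell and 6 did not pass, where 20.7% of all probe sets changed. All 3 that changed lie beside AT2G31810 on chromosome 2, and whether they differ in this from the neighbours of the other members was not tested. AT2G31800, of the integrin-linked kinase family and adjacent to AT2G31810 on the side of lower gene numbers, had signals of 620 to 814 on the lib arrays and 1201 to 1274 on the wild type arrays. It fell by 0.76 (SE 0.11, limma adjusted p = 0.00208). AT2G31820, an ankyrin repeat protein on the other side, fell by 0.45 (SE 0.10, limma adjusted p = 0.0130), a call that did not hold when the intensity trend was left out (0.0675 as the adjusted p), nor without lib replicate 1 (0.0553) or lib replicate 2 (0.0525).

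AT2G31790, a glucosyltransferase of aliphatic glucosinolate synthesis that lies beyond AT2G31800 on the side of lower gene numbers, moved the other way. Its signals were 602, 615 and 531 on the lib arrays, against 155, 155 and 233 on the wild type arrays, and it rose by 1.71 (SE 0.17, limma adjusted p = 0.000340). So among these chromosome neighbours a gene of branched-chain amino acid synthesis fell and a gene of glucosinolate synthesis rose, with AT2G31800 between them. Around the other members no measured neighbour passed. AT5G65750, a subunit of oxoglutarate dehydrogenase near ATBCAT-5, came nearest, at -0.37 (limma adjusted p = 0.0616), and the remaining 5 stood between -0.08 and 0.14.

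**Figure D4:**
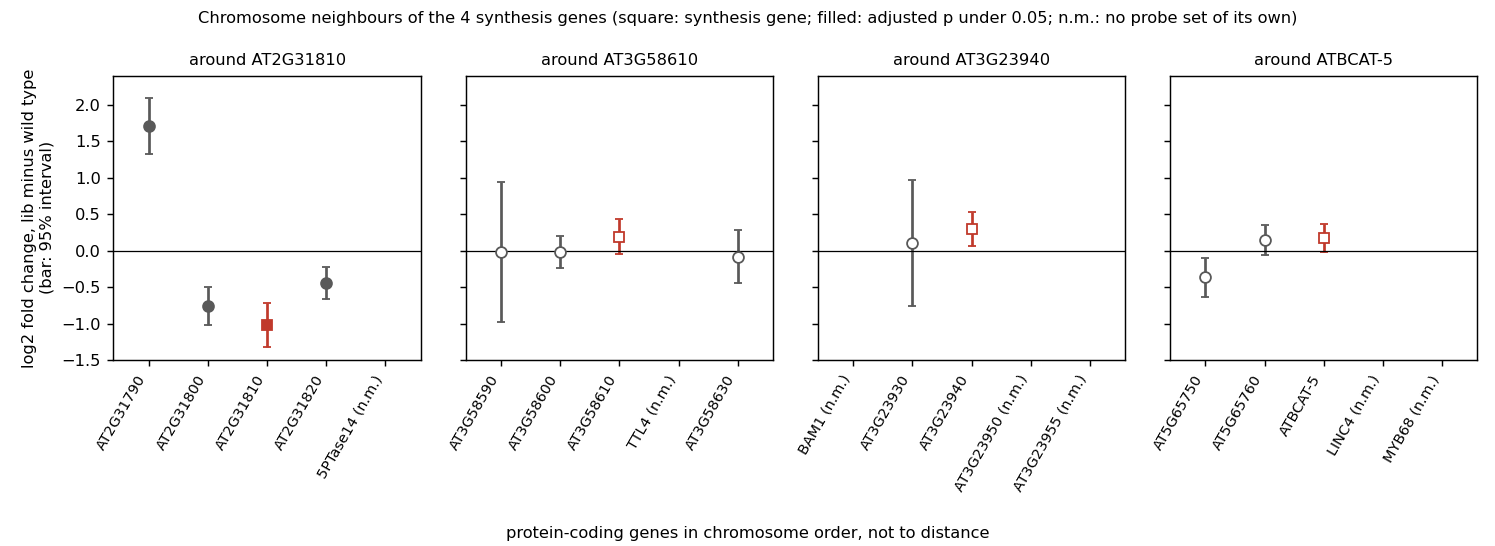
Log2 fold change of lib against wild type (vertical axis, with 95% intervals from limma) for the 4 synthesis genes (squares) and the nearest 2 protein-coding genes on each side (circles), in chromosome order and not to distance. The genes around AT2G31810 run from 1.71 for AT2G31790 to -1.02 for AT2G31810 itself, and the open symbols around the other members did not pass.

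The arrays also differed among themselves within a group. Lib replicate 3 was the highest lib array for AT2G31810, AT3G58610 and AT3G23940 and the lowest for ATBCAT-5. Over the 6 arrays the Pearson correlation of AT3G58610 with AT3G23940 was 0.84, and that of AT2G31810 with ATBCAT-5 was -0.91. These values describe the same 6 arrays, and they hold the difference between the groups as well as the spread within them.

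Among 6069 other probe sets of 1 gene with a mean signal above the median, the profile most like that of AT2G31810 was that of AT5G14230 (Pearson r = 0.998 over 6 arrays), which fell by 1.03. It was followed by AT4G37550 (r = 0.993, a log2 fold change of -0.64) and rpoC1, a subunit of the plastid-encoded RNA polymerase (r = 0.992, -0.74). For AT3G58610 the nearest were AT5G64730 (r = 0.990), AT3G19540 (r = 0.983) and AT1G62330 (r = 0.982), at log2 fold changes of 0.16 to 0.33. For AT3G23940 they were I-2, an inhibitor of protein phosphatase (r = 0.995), AT2G01250, a ribosomal protein of the large subunit (r = 0.986), and AT5G64670 (r = 0.985), at 0.20 to 0.45. For ATBCAT-5 they were AT3G55920, a cyclophilin (r = 0.994), AT3G60180 (r = 0.992) and AT5G61330 (r = 0.989), at 0.38 to 0.75. A correlation of 0.95 or more with AT2G31810 was reached by 171 of these probe sets (2.82%), against 35 (0.577%) for AT3G58610, 43 (0.709%) for AT3G23940 and 61 (1.01%) for ATBCAT-5. All these correlations hold the difference between lib and wild type, which was largest for AT2G31810, so the shares are not a measure of likeness apart from it.

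The fall of AT2G31810 held its direction and its call under all 14 alternatives tried for it, with log2 fold changes of -1.10 to -0.88 and limma adjusted p-values of 0.000199 to 0.0289. The log2 fold changes of AT3G58610 (0.11 to 0.25), AT3G23940 (0.24 to 0.38) and ATBCAT-5 (0.14 to 0.21) also kept their sign throughout. AT3G58610 and ATBCAT-5 passed under none of the alternatives, with limma adjusted p-values of at least 0.145 and 0.0946.

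**Figure D5:**
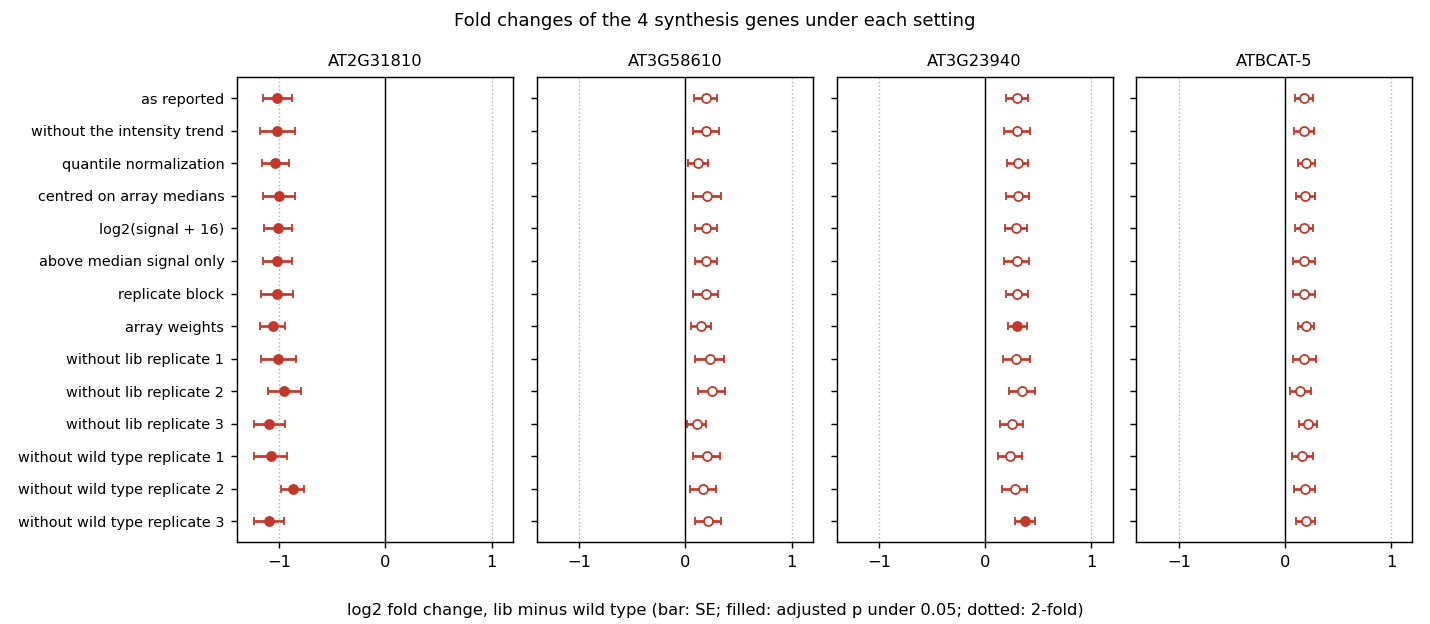
Log2 fold change of lib against wild type (horizontal axis, with SE) of the 4 genes as reported and under the alternatives of processing, with filled symbols for a limma adjusted p under 0.05 and dotted lines at a 2-fold change. AT2G31810 stays between -1.10 and -0.88 and is filled in every setting, and AT3G23940 is filled with array weights and without wild type replicate 3.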

How the data were processed

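The deposited log2 values come from 1 array per sample and are MAS5 signals, per the submitters' processing notes. The MAS5 version is not given in the sources used here. Their linear 2% trimmed means were 496 on each of the 6 arrays, so they were used without further normalization. The second deposited table gives, for each probe set, the authors' p-value and their ratio, lib over wild type. For 22737 probe sets the deposited p-value equals, within 1e-06, an unadjusted unequal-variance comparison of the log2 values.

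Gene names are those of the platform annotation, updated through the TAIR10.1 gene table. The annotation gives 13513 of 22746 probe sets exactly 1 gene, 503 several genes and 8730 no gene. A gene is called measured here if a probe set is assigned to it alone. Whether the probe sets without a gene match any of the genes not analysed was not examined. The comparison of lib with wild type used limma 3.58.1 under R 4.3.3 on the whole table (eBayes with intensity trend, two-sided, Benjamini-Hochberg adjustment), and calls were made at an adjusted p under 0.05. Each log2 fold change is the lib mean minus the wild type mean. The script was tested on simulated data. Ratios within arrays were tested with exact permutation (scipy 1.17.1).

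The members and lists were chosen with earlier results of these data known. The text or the plot of pathway fold changes names all members, the measured genes of the lists, the 3 genes most correlated with each member, and the measured genes among the 2 nearest on each side. With 3 arrays per group, precision is limited by their number. The labels call the replicates biological without naming separate plates or batches, so p-values measure the spread between these arrays.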

Additional observations from a re-analysis of the deposited data

How the results depend on the processing

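The call of AT2G31810 kept its direction and its side of the threshold under the 14 alternatives tried for it. So did the missing calls of AT3G58610 and ATBCAT-5 under theirs. Among the 14 is the reported fit read at an adjusted p under 0.01, where a gene not called at 0.05 cannot be called. AT3G23940 passed with array weights (0.30) and without wild type replicate 3, with a range of 0.24 to 0.38 when arrays were left out in turn. The members called then numbered 2, with array weights and without wild type replicate 3, against 1 otherwise (range 1 to 2 with arrays left out). With the replicate block the log2 fold change of AT2G31810 was -1.02 (limma adjusted p = 0.00699), and the block changed no call of the members. Same-numbered arrays of lib and wild type did not deviate together (correlations of 0.047, -0.20 and -0.23). Among other pairs the correlation reached 0.25 for lib replicate 2 with wild type replicate 3, and 0.22 for lib replicate 3 with wild type replicate 2. Deviations from a mean of 3 arrays constrain each other, so these values cannot settle whether any arrays share a batch. The block left 3442 calls over all probe sets, against 4708 without it. The 7 calls among the breakdown genes became 4 without the intensity trend and with the replicate block, and 4 to 7 with arrays left out in turn, where the lowest count was without wild type replicate 1. Fitted to the brighter probe sets alone (mean above the median), there were 8, of which 2 rose. No breakdown gene rose without the intensity trend, with the replicate block, without wild type replicate 1 or without wild type replicate 3. Without the block, those 4708 calls became 2257 at an adjusted p under 0.01, 2383 when the intensity trend was left out, and 2705 to 3747 with arrays left out, the lowest without lib replicate 1. The difference in the ratio of AT3G58610 to ATBCAT-5, 0.01, reversed to -0.084 with quantile normalization, to -0.11 without lib replicate 3 and to -0.018 without wild type replicate 2. Over the pairs, the differences ran from -1.47 to 0.20 with arrays left out. The causes were not tested. The alternatives for AT1G50110, AT4G31810, ALDH6B2, AT2G26800 and the neighbours of AT2G31810 were chosen after seeing the data. No alternative could be computed for the leucine branch, since no probe set is assigned to any of its listed genes alone. The number of arrays, 3 per group, limits what can be told apart. Detection calls were not used here.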
